A study of Rattus norvegicus with 10 samples.

Results

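Voltage-gated potassium (Kv) channel genes were followed in the dentate gyrus, the input region of the hippocampus, 3 weeks after traumatic brain injury (TBI). The members were all genes whose symbols name a Kv pore subunit (Kcna, Kcnb, Kcnc, Kcnd, Kcnf, Kcng, Kcnh, Kcnq, Kcns or Kcnv), a Kv beta subunit (Kcnab) or a Kcne subunit in the feature list of the nuclei. There were 46 such genes among 25399 features, and 40 of the 46 were in the bulk gene table. Kcna7, Kcna10, Kcne1, Kcne3, Kcng3 and Kcnv2 were not in that table, and Kcnb2 and Kcnd2 were not analysed here.

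All rats were male Sprague Dawley rats of about 8 to 15 weeks at injury, and no transgene was used. TBI was a single lateral fluid percussion pulse through a craniectomy made 3 days earlier, and the dentate gyrus of the injured side was taken 3 weeks later. Sham rats had every step of the surgery but the pulse, so craniectomy, isoflurane anaesthesia and the opioid analgesic buprenorphine were common to TBI and sham, while the naïve rat had no surgery. Bulk RNA-seq was made from 3 rats per group (sham and TBI), and single-nucleus RNA-seq (snRNA-seq) from 2 TBI rats, a sham rat and a naïve rat. The sham and naïve rats together formed the control for nuclei, following the study's design. Each library came from 1 rat. In the nuclei the sham and the naïve rat differ in surgery, with the drugs given around it, as well as in animal, and what belongs to the surgery cannot be told apart from what belongs to the rat.

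Kv channels open when a neuron is depolarised and let potassium out, which ends the action potential and limits how soon the next one follows. Their pore is built of 4 alpha subunits, which form channels mostly within a family. Kv1 and Kv2 give delayed rectifier currents, Kv3 channels close fast and allow high firing rates, Kv4 channels give the transient A current of dendrites, and Kv7 channels carry the M current that holds neurons near rest. Electrically silent subunits pass no current alone and modify Kv2 channels, while Kv beta and Kcne subunits alter gating or transport. In the dentate gyrus the granule neurons fire sparsely and many GABAergic interneurons fire fast, and the families are known to be used differently by these cells.

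The bulk libraries held between 24730300 and 43912300 estimated gene counts. Among the 55124 nuclei kept, 11 cell classes were named from marker genes, and all of them had at least 20 nuclei in every rat. Granule neuron-like nuclei numbered 5769 and 5908 after TBI, 8591 after sham surgery and 6454 in the naïve animal. The bulk libraries also differed in their levels of cell type markers, in part in ways that the injury did not follow. The summed level of the 12 granule neuron markers in the table was 1187, 425 and 385 CPM (counts scaled to equal library totals) in sham 1 to 3 and 832, 402 and 637 CPM in TBI 1 to 3, so sham 1, TBI 1 and TBI 3 were the high libraries. The 11 oligodendrocyte markers summed to 17100 CPM in sham 2 and to 5049 to 7881 CPM in the other libraries. The fibroblast markers summed to 934 CPM in TBI 3 and 89.5 to 212 CPM elsewhere. All 6 fibroblast markers were higher in TBI, with a median Log2FC of 1.88 and 4 of them at an unadjusted p under 0.05. All 12 microglia markers were higher in TBI, with sums of 328 to 340 CPM in sham and 578 to 1046 CPM in TBI. So were all 11 astrocyte markers (5256 to 5955 CPM in sham and 8160 to 11088 CPM in TBI) and all 9 pericyte markers (156 to 177 CPM in sham and 205 to 874.2 CPM in TBI), while 11 of the 14 GABAergic markers were lower, 0 of them at an unadjusted p under 0.05. The part of these shifts in the members' bulk values was not tested.

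In bulk dentate gyrus most Kv genes were slightly lower after TBI. Of the 40 members in the table, 25 were lower and 15 higher in TBI, with a median Log2FC of -0.22 on the edgeR scale, against a median of -0.0029 and 50.6% lower over all 14166 genes. At an unadjusted p under 0.05, 4 members were lower, among them Kcna2, Kcnc1 and Kcnc2, where 1.4% of all genes were lower, and 2 were higher (Kcne4 and Kcne5), where 8.2% of all genes were higher. No member and no gene passed an FDR of 0.05 in edgeR's quasi-likelihood test (0% of 14166 genes, with 1360 genes at an unadjusted p under 0.05). DESeq2 called 349 genes and limma 0, and neither called a member. In bulk tissue, fewer cells of a type and less RNA per cell cannot be told apart.

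Kcnc1 (Kv3.1), a subunit of fast-spiking interneurons, was at 83.6, 91.2 and 104 CPM in sham 1 to 3 and at 79.1, 69.5 and 67.9 CPM in TBI 1 to 3. The groups did not overlap, and the Log2FC was -0.41 ± 0.13 (SE; unadjusted p = 0.0132, edgeR adjusted p = 0.322). Kcnc2 (Kv3.2), also known from fast-firing interneurons, was at 43.3, 62.6 and 65.8 CPM in sham and at 40.8, 47.7 and 39.8 CPM in TBI, with a Log2FC of -0.46 ± 0.18 (unadjusted p = 0.0354, edgeR adjusted p = 0.460). Sham 1 lay among the TBI libraries for this gene. Kcnc4 (Kv3.4), an A-type subunit known from granule cell axons, went the other way and not with injury, at 101, 26.3 and 35.4 CPM in sham and 89.5, 35.4 and 68.5 CPM in TBI, the same libraries being high as for the granule neuron markers.

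The promoters of Kcnc1 and Kcnc2 are shown because both genes were lower in bulk and both had their highest nuclear level in GABAergic neuron-like nuclei, while their sequences differ. Each is the 300 bases around the annotated start in RefSeq's rat assembly GRCr8, both on the + strand, at chr1:106038997-106039296 for Kcnc1 and chr7:49587364-49587663 for Kcnc2, and capitals mark GGGCGG, the core of a GC box, on either strand.
Kcnc1: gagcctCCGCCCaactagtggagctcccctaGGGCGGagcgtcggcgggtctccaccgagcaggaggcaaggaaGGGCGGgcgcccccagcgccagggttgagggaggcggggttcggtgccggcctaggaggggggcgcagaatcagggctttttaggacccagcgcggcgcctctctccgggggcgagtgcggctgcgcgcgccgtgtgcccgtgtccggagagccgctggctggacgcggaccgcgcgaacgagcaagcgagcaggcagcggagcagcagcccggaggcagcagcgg
Kcnc2: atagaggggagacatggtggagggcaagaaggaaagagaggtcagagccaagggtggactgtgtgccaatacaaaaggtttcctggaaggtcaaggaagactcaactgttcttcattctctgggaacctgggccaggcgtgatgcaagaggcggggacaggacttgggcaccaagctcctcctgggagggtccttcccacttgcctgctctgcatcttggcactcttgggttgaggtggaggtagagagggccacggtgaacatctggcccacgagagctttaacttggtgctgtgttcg
The Kcnc1 window is 74.0% G and C, with 36 CpG and 3 GGGCGG, and the Kcnc2 window is 56.0% G and C, with 5 CpG and none. Over all 33469 promoters of the same length 33.1% hold GGGCGG on either strand, as do 19 of the 33 entries that matched 31 members. TATAAA, the core of a TATA box, was in 14.2% of all promoters on either strand and in 0 of the 33, and neither motif overlaps the other in the printed windows.

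Kcna2 (Kv1.2), an axonal delayed rectifier, was at 174, 221 and 220 CPM in sham and at 175, 172 and 154 CPM in TBI (Log2FC -0.33 ± 0.13, unadjusted p = 0.0378, edgeR adjusted p = 0.472). Sham 1 lay among the TBI libraries here too. Of the 6 Kv1 genes in the table, 4 were lower, with Log2FC from -0.53 to 0.69. Kcna1 (Kv1.1), which pairs with Kcna2 in axons, followed the library split rather than the groups, at 30.9, 68.4 and 66.6 CPM in sham and 34.7, 54.0 and 29.8 CPM in TBI. Kcna6 (Kv1.6) was at 129 CPM in sham 2, the library rich in oligodendrocyte markers, and at 57.9 to 68.0 CPM in the other 5.

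The 2 members higher in TBI were both Kcne genes, small single-pass subunits that modify Kv and other channels, and both were rare transcripts. Kcne5 was at 3.24, 2.60 and 1.25 CPM in sham and at 5.62, 5.23 and 4.42 CPM in TBI (Log2FC 1.08 ± 0.36, unadjusted p = 0.0187, edgeR adjusted p = 0.365). Kcne4 was at 0.343, 0.734 and 0.706 CPM in sham and at 1.17, 1.21 and 1.71 CPM in TBI (Log2FC 1.14 ± 0.45, unadjusted p = 0.0377, edgeR adjusted p = 0.472). Neither gene overlapped between the groups. In all nuclei together Kcne4 had 2 UMIs and Kcne5 had 6, so the nuclei could not show which class held them. Kcne2, the third Kcne gene in the table, had a Log2FC of 0.13. Counting members whose 3 TBI libraries all lay on one side of the 3 sham libraries gave 4 lower (Kcnc1, Kcnh2 and Kcnv1 among them), against 3.06% of all genes, and 2 higher (Kcne4 and Kcne5), against 11.7%.

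**Figure D1:**
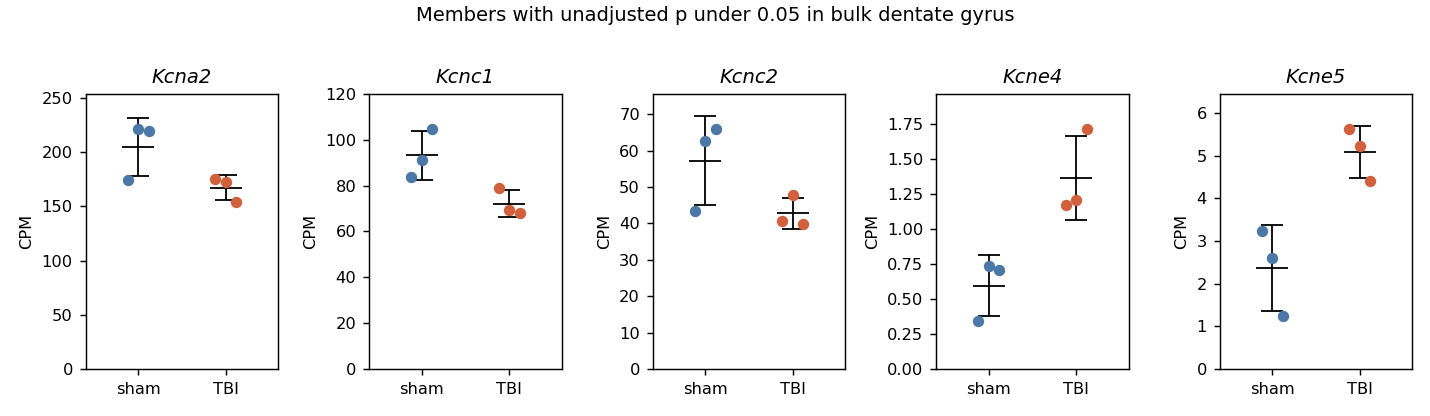
Level in CPM (vertical axes, from 0) of Kcna2, Kcnc1, Kcnc2, Kcne4 and Kcne5, members with an unadjusted p under 0.05 in bulk, with 1 point per library, sham on the left and TBI on the right, and lines at the group means with bars of 1 SD. Kcnc1, Kcne4 and Kcne5 do not overlap between the groups, while for Kcna2 and Kcnc2 sham 1 lies among the TBI libraries.

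The rats of the bulk libraries had surgery in 2 periods, sham 1, sham 2 and TBI 1 in spring and the others in autumn. The 6 members with an unadjusted p under 0.05 all kept their direction within each period. They were picked for that p over the same libraries, so this is no separate test of direction. Kcnc1 had a small difference in spring, with a log2 value of -0.14, and one of -0.60 in autumn. At an unadjusted p under 0.05, 1 member was lower without TBI 3, the library rich in fibroblast markers, or without sham 3, in place of 4. In place of 2 higher members there were 0 without TBI 1, 1 without TBI 2, TBI 3 or sham 3, and 4 without sham 1. Over all genes, in either direction, such a p was reached by 870 without sham 3, 879 without TBI 3 and 1871 without sham 1, against 1360.

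The other families gave no member at an unadjusted p under 0.05 in bulk. All 3 Kv beta genes were lower, with Log2FC from -0.29 to -0.23, and Kcnab2, the most abundant of them in the table at 403 to 645 CPM, overlapped between the groups. Kcnq3, a Kv7 subunit of the M channel, had a Log2FC of -0.45 (unadjusted p = 0.0772). Of the 8 EAG, ERG and ELK genes 6 were lower, with Log2FC from -1.13 to 0.17. Both Kv4 genes were near 0, at 0.0026 for Kcnd1 and 0.025 for Kcnd3. The 8 silent subunits in the table were split evenly, 4 lower and 4 higher, and Kcnv1 (Kv8.1) was at 46.0, 44.4 and 46.0 CPM in sham and at 35.7, 44.3 and 30.5 CPM in TBI (unadjusted p = 0.0555).

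For members such as Kcnc4 and Kcnq5, a division of the libraries that cut across injury was wider than the difference between the groups. Of the 32 members with a mean above 5 CPM, 6 had sham 1, TBI 1 and TBI 3 as their 3 highest libraries (Kcna4, Kcnc4, Kcnf1, Kcng1, Kcnh3 and Kcnh4) and 6 had the other 3 as their highest (Kcna1, Kcna6, Kcnab2, Kcnc2, Kcnh1 and Kcnq5). These are ranks, and the gap was not wide for each member. Kcna6 was high in sham 2 alone, and Kcnab2 was at 496 CPM in sham 2 and 491 CPM in sham 1. The share of all genes with these ranks was not counted. Kcnq5, a Kv7 subunit, was at 101, 236 and 320 CPM in sham and 131, 248 and 165 CPM in TBI, low in the libraries where Kcnc4 was high. The same libraries were high and low for the granule neuron markers, and the part of this in the members' values was not tested. The 3 sham libraries were the highest for 4 members, and the 3 TBI libraries for 0 members above 5 CPM.

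**Figure D2:**
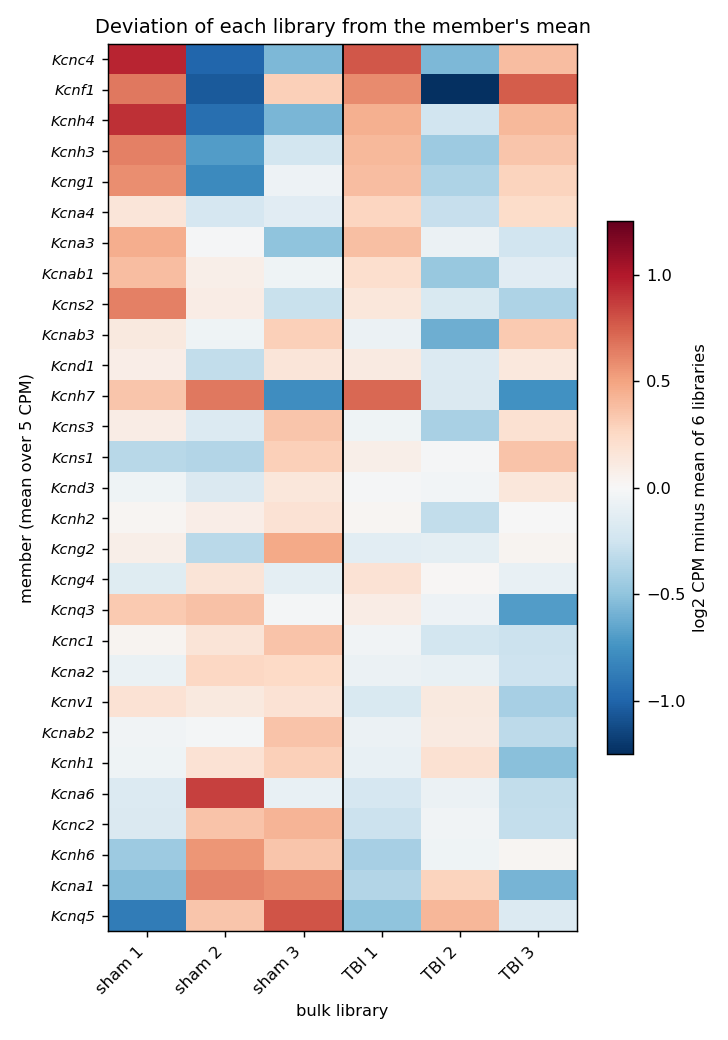
Deviation of each bulk library (columns, sham left of the line and TBI right) from the mean log2 CPM of the member (rows, 29 of the members with a mean above 5 CPM), with colour from blue (below the mean) to red (above it). Kcnc4, Kcng1, Kcnh3, Kcnh4 and Kcnf1 are red in sham 1, TBI 1 and TBI 3, and Kcnq5 is blue there.

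In nuclei, 14 members belonged most to 1 cell class in all 4 rats. Each of them had their highest level over the named classes in 1 class in every rat, with at least 100 UMIs in that class. The members were kept out of the genes used for clustering. Levels are given as CPM of UMIs summed per class, for TBI 1, TBI 2, sham and naïve in that order, and are compared between classes only. No test was made on these levels.

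GABAergic neuron-like nuclei led for 6 members, Kcnc1, Kcnc2, Kcnd3, Kcnh2 and Kcns3 among them. Kcns3 (Kv9.3), a silent subunit, was at 83.3, 127, 91.0 and 110 CPM there, 10.1 times its mean in the next class. It had a UMI in 18.9% to 28.2% of GABAergic nuclei per rat, with median depths of 2065 to 3527 UMIs, and in 0.0930% to 0.780% of granule nuclei, with median depths of 1740 to 2672 UMIs. Within the class it was not even: a GABAergic cluster with Sst among its leading genes held 144 CPM and another with Reln and Grik1 held 150 CPM, while the cluster led by Reln and Npas1 held 11.6 CPM. Kcns3 separated the interneuron clusters in every rat, at 116 to 203 CPM in the first pair and 7.20 to 21.2 CPM in the last.

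Kcnc1 and Kcnc2, the Kv3 genes of fast-firing interneurons, were also highest in GABAergic nuclei. Kcnc2 was at 1381, 1680, 1612 and 1961 CPM, 2.19 times its level in other excitatory nuclei, and Kcnc1 at 533, 630, 545 and 534 CPM, 2.44 times. The Sst cluster was the highest interneuron cluster for Kcnc2, at 2154 CPM against 1408 and 1189 CPM. Kcnh2 (ERG1) was at 16.7, 24.5, 20.98 and 11.7 CPM, 3.93 times the next class. Kcnd3 (Kv4.3) was at 716, 767, 782 and 614 CPM, only 1.22 times its level in granule nuclei, and the ranges of these neighbours overlapped.

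Granule neuron-like nuclei led for 2 members. Kcnc4, of the same family as Kcnc1 and Kcnc2 but highest in another class, was at 32.1, 32.4, 23.6 and 24.2 CPM, 1.59 times the next class.

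Other excitatory neuron-like nuclei, whose clusters are led by genes such as Neurod6, Rspo2, Fermt1 and Adamts2, led for 4 members. The class was not made of the same nuclei in each rat, since another cluster, the third by size, led by Htr2c and Mpped1, had 286 nuclei in TBI 1 and 388 in sham but 19 in TBI 2 and 9 in naïve. Without that cluster, a choice made after seeing the data, 16 members led in 1 class, among them all 14 in the same class as before. Kcng3 (Kv6.3), a silent subunit, was at 26.0, 36.0, 28.9 and 39.0 CPM, 5.87 times the next class, and its level was higher in the Fermt1 and Adamts2 cluster (61.3 CPM) than in the Neurod6 and Rspo2 cluster (22.2 CPM), with 5 UMIs in all in the third. Kcnq5 was at 775, 1078, 759 and 683 CPM and had the opposite order of these clusters, 502 and 1108 CPM, with 392.6 CPM in the third. Kcnh1 (EAG1) was at 371, 397, 396 and 331 CPM, 1.27 times its level in granule nuclei, and Kcnab1 at 910, 1042, 1128 and 763 CPM, where the neighbouring classes overlapped.

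Glial classes led for 2 members. Kcna6 was at 170, 252, 167 and 170 CPM in oligodendrocyte-like nuclei, 4.29 times its level in GABAergic nuclei. It had a UMI in 19.97% to 24.5% of oligodendrocyte nuclei per rat, whose median depths were only 736 to 1184 UMIs, and in 2.89% to 5.88% of granule nuclei. Kcng4 (Kv6.4), a silent subunit, was at 19.1, 20.2, 24.8 and 30.2 CPM in astrocyte-like nuclei, 3.02 times the next class and far above its level in granule nuclei, 0.734 CPM on average.

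**Figure D3:**
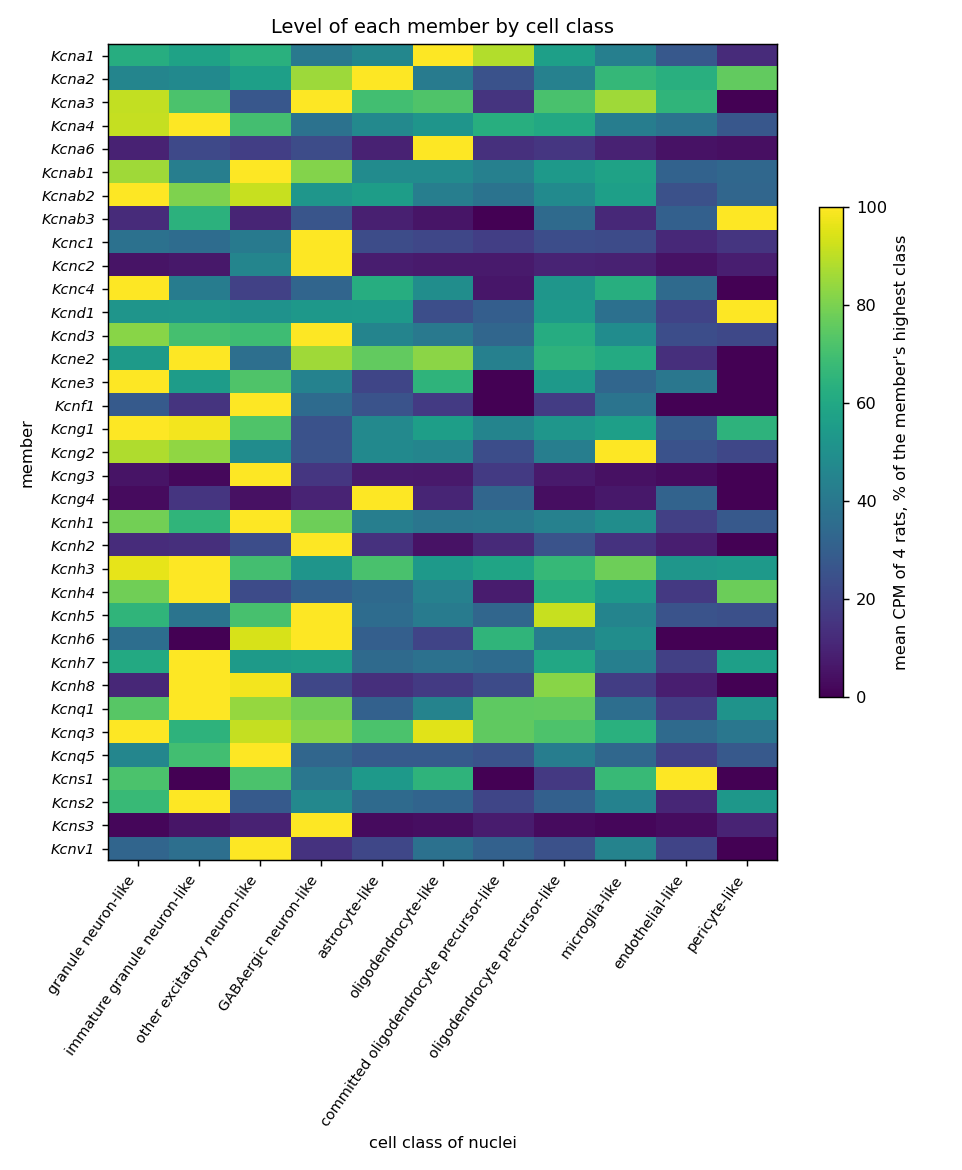
Mean level of members over the 4 rats in each cell class of nuclei (columns), as a percent of the level in the member's highest class (rows, members with at least 100 UMIs in alphabetical order), from dark (0) to bright (100). Kcns3, Kcnh2, Kcnc1 and Kcnc2 are brightest in GABAergic nuclei, Kcna6 in oligodendrocyte-like nuclei and Kcng4 in astrocyte-like nuclei.

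The levels of many other members in glial nuclei were not separated from RNA of granule neurons. The 12 granule neuron markers detected were in microglia-like nuclei at a median of 70.2% of their level in granule neuron-like nuclei (range 50.9% to 149%), whereas the 14 GABAergic markers were there at a median of 7.11% of their level in GABAergic nuclei. Some abundant Kv genes of granule neurons were in microglia at similar shares of the granule level, with 63.4% for Kcnq3, 56.3% for Kcnab2 and 59.4% for Kcnd3. Others were above it, with 113% for Kcng2, whose highest class was microglia at 104 CPM on average, and, among genes highest in other classes, 146% for Kcna2 and 178% for Kcnc2. Free RNA was not estimated, so these levels are not divided here between microglia and other cells. Kcnc2 varied between rats outside its leading classes. It was high in the TBI 1 and sham rats (121 and 152 CPM in granule nuclei) and low in the TBI 2 and naïve rats (50.0 and 24.3 CPM), as the summed astrocyte markers in granule nuclei were (497 and 425 against 162 and 150 CPM), and their part in the values of Kcnc2 was not tested.

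TBI against control was then tested within each class, and 39 of the 46 members passed the filter on low counts in at least 1 class. Kcna5, Kcna7, Kcna10, Kcne1, Kcne4, Kcne5 and Kcnv2 passed in none, with 1 to 17 UMIs over all nuclei. Over 260 tests of a member in a class, 22 gave higher and 1 gave lower levels in TBI at an unadjusted p under 0.05. Over all genes 1921 of 93643 tests gave higher and 1512 gave lower levels. The tests share the same 4 rats, and astrocyte-like nuclei alone gave 10 of the 22. No member or other gene passed an FDR of 0.05 in edgeR's quasi-likelihood test in any of the 11 classes (0% of 93643 tests, with 3433 at an unadjusted p under 0.05), while DESeq2 called 263, among them 5 members in astrocyte-like nuclei.

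In granule nuclei 38 members were tested with a median Log2FC of 0.13, and Kcnab2 alone was higher at an unadjusted p under 0.05, where 1.01% of genes were. In immature granule nuclei Kcnab2 was again the only one of 20, where 2.35% of genes were. None of the 33 members tested in GABAergic nuclei had an unadjusted p under 0.05, where 0.863% of genes were higher and 0.481% lower, nor did any of the 33 in other excitatory nuclei, where 0.379% and 0.336% were. With shares this low, 0 of 33 does not set the members apart from all genes. Without the Htr2c and Mpped1 cluster 1 of 32 members in other excitatory nuclei, Kcnh8, had an unadjusted p under 0.05. The share of all genes without that cluster is not given here. The 27 members tested in oligodendrocyte-like nuclei (1.09% of genes higher and 0.866% lower) and the 2 in pericyte-like nuclei (2.13% and 2.4%) also gave 0. The Kv3 genes Kcnc1 and Kcnc2, at lower levels in bulk, had Log2FC of 0.038 ± 0.16 for Kcnc1 and -0.29 ± 0.20 for Kcnc2 in GABAergic nuclei (unadjusted p = 0.822 and 0.183), and bulk and nuclei came from different rats.

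Kcnab2, the Kv beta 2 subunit, an aldo-keto reductase fold that binds Kv1 channels and helps bring them to axons, was the member higher in the most classes. In granule nuclei it was at 500.02 and 561 CPM after TBI against 370 (sham) and 362 (naïve) CPM (Log2FC 0.49 ± 0.14, unadjusted p = 0.0193). In astrocyte-like nuclei it was at 335 and 364 CPM in TBI, 148 CPM in sham and 151 CPM in naïve (Log2FC 1.16 ± 0.14, unadjusted p = 7.1e-05, edgeR adjusted p = 0.199). Both TBI rats were above both controls in these classes, as they were for 2820 of 13819 genes in granule and 3284 of 12548 in astrocyte-like nuclei. The same held at an unadjusted p under 0.05 in immature granule (Log2FC 0.52), committed oligodendrocyte precursor (1.09), oligodendrocyte precursor (0.70), microglia (0.57) and endothelial nuclei (0.93), making 7 of the 10 classes in which it was tested. All classes come from the same rats, so these results are not separate replications. Over all nuclei Kcnab2 was at 411 and 446 CPM in TBI, 315 CPM in sham and 288 CPM in naïve. The part of a shift common to all nuclei of a rat was not tested. How many genes had such a p in as many classes is not given here. In oligodendrocyte, other excitatory and GABAergic nuclei the Log2FC was 0.42, 0.48 and 0.17 (unadjusted p = 0.0723, 0.143 and 0.357). Without TBI 2 the classes with an unadjusted p under 0.05 numbered 2, and with a gate on marker UMIs or with DESeq2 they numbered 3.

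In bulk Kcnab2 was at 491, 496 and 645 CPM in sham and 480, 547 and 403 CPM in TBI, with a Log2FC of -0.23 ± 0.17 (unadjusted p = 0.209), so nuclei and bulk, from different rats, differed in sign. The promoter of Kcnab2 is given because this gene had the most class results, from RefSeq's GRCr8 at chr5:168270711-168271010 on the - strand.
Kcnab2: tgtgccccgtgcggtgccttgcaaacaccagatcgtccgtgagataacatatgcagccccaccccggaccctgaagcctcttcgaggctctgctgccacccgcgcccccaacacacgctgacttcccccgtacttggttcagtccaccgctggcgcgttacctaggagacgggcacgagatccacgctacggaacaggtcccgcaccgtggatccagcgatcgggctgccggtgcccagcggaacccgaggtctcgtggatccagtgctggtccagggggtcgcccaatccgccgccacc
It holds 28 CpG and neither GGGCGG nor TATAAA on either strand.

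Kcnd3, the Kv4.3 subunit of the A current, was higher in TBI at an unadjusted p under 0.05 in 4 classes. These classes also share the same rats. Over all nuclei Kcnd3 was at 598 and 603 CPM in TBI, 514 CPM in sham and 458 CPM in naïve. It was at 410 and 413.7 CPM in TBI against 241 and 236 CPM in the sham and naïve rats in astrocyte-like nuclei (Log2FC 0.72 ± 0.14, unadjusted p = 0.0011, edgeR adjusted p = 0.199). In committed oligodendrocyte precursor-like nuclei it was at 359 and 347 against 123 and 116 CPM (Log2FC 1.499 ± 0.35, unadjusted p = 0.00082, edgeR adjusted p = 0.658), and its Log2FC was 0.59 in microglia-like and 1.08 in endothelial-like nuclei. All of these were glial or vascular classes in which the level of Kcnd3 was below that of granule nuclei, where its Log2FC was 0.31 ± 0.14 (unadjusted p = 0.0674). In GABAergic nuclei, its highest class, the TBI rats lay within the range of the controls. Classes with an unadjusted p under 0.05 numbered 2 without TBI 1 or without the naïve rat, and 0 with the marker gate.

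**Figure D4:**
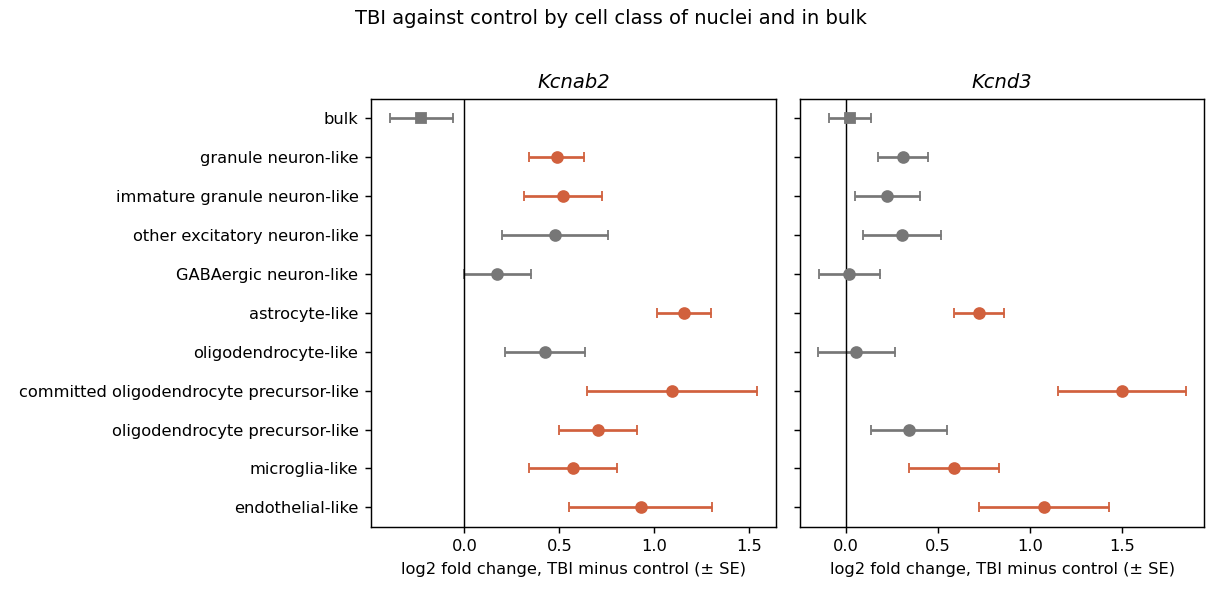
Log2FC of TBI minus control with its SE (horizontal axis) for Kcnab2 and Kcnd3 in each class of nuclei in which they were tested, and in bulk (grey squares). Kcnab2 lies right of 0 in all 10 classes and left of 0 in bulk, and Kcnd3 lies farthest right in committed oligodendrocyte precursor-like nuclei.

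Astrocyte-like nuclei had the most members with a higher level in TBI at an unadjusted p under 0.05. Of 35 tested, 31 had a positive and 4 a negative Log2FC, with a median of 0.44 against -0.016 over the 12548 genes tested there. At an unadjusted p under 0.05, 10 members were higher and 0 lower, where 6.71% of all genes were higher and 5.65% lower. Beside Kcnab2 and Kcnd3 these included Kcnc1, Kcng1, Kcng2, Kcnh1, Kcnh3 and Kcnh4.

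Kcnc1 was in astrocyte-like nuclei at 188 and 147 CPM in TBI against 91.0 and 98.4 CPM in the sham and naïve rats (Log2FC 0.76). The silent subunits that modify Kv2 gave 52.1 and 65.8 against 34.5 and 33.2 CPM for Kcng1 and 62.3 and 62.8 against 32.9 and 39.1 CPM for Kcng2 (both with a Log2FC of 0.73). The EAG and ELK genes were Kcnh1 (216 and 187 against 136 and 103 CPM, Log2FC 0.70), Kcnh3 (75.4 and 75.1 against 46.6 and 48.8 CPM, Log2FC 0.59) and Kcnh4 (14.3 and 11.2 against 5.57 and 4.94 CPM, Log2FC 1.22). All 10 had both TBI rats above both controls and adjusted p from edgeR of 0.199 to 0.264. Both TBI rats lay above both controls for 21 of the 35 members tested and for 3284 of the 12548 genes tested there. Each of the 10 had a higher mean level in granule nuclei than in astrocyte-like nuclei. Kcng4, the member that astrocyte-like nuclei led, had a Log2FC of -0.55 ± 0.26 (unadjusted p = 0.0668), at 19.1 and 20.2 CPM in TBI against 24.8 and 30.2 CPM.

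Markers of other cells moved in the same nuclei. The granule neuron markers summed in astrocyte-like nuclei to 6041 and 5721 CPM in TBI, 4947 CPM in sham and 4656 CPM in naïve, and 9 of 11 tested were higher, 4 of them at an unadjusted p under 0.05, with a median Log2FC of 0.15. Among these markers Maml2 was on average at 1786 CPM in astrocyte-like nuclei and 1697 CPM in granule nuclei. The astrocyte markers themselves summed to 5038 and 7501 CPM in TBI against 7919 and 9930 CPM, with 12 of 12 lower and 5 of them at an unadjusted p under 0.05. In bulk, from different rats, all 11 astrocyte markers in the table were higher in TBI. Of the 11 GABAergic markers tested 7 were lower, with a median Log2FC of -0.28, but the 2 at an unadjusted p under 0.05, Gad1 (0.46) and Kit (0.53), were higher. The part of these shifts in the members' values was not tested.

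The astrocyte-like class held clusters in unlike shares, and an unnamed cluster that scored highest for astrocyte markers was left out of it. That cluster had Gfap and mitochondrial genes among its leading genes. Its nuclei numbered 430 in TBI 1, 784 in TBI 2, 497 in sham and 252 in naïve. It was not tested as a class, so the results for astrocyte-like nuclei do not cover it. At a finer resolution the cluster led by Itih3 and Grin2c, of low median UMI count (1120 to 1600), made up 43.7% and 39.3% of astrocyte-like nuclei in TBI 1 and TBI 2, 58.6% in sham and 50.6% in naïve. Tested alone, a choice made after seeing the data, it gave 3 of 21 members higher at an unadjusted p under 0.05, where 2.40% of genes were. The cluster led by Gfap and Apoe gave 14 of 28, where 8.10% were, and the cluster led by Grin2c and Gfap gave 5 of 27, where 3.89% were. Kcnab2 was higher at an unadjusted p under 0.05 in each of the 3, with Log2FC of 1.01, 1.35 and 0.62, and so was Kcnc1, while Kcnd3 had 0.55 (unadjusted p = 0.101), 0.86 and 0.33. Assigning nuclei by a gate on marker UMIs in place of clusters left 4 members higher at an unadjusted p under 0.05 in astrocytes, and the share of all genes there is not given here.

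**Figure D5:**
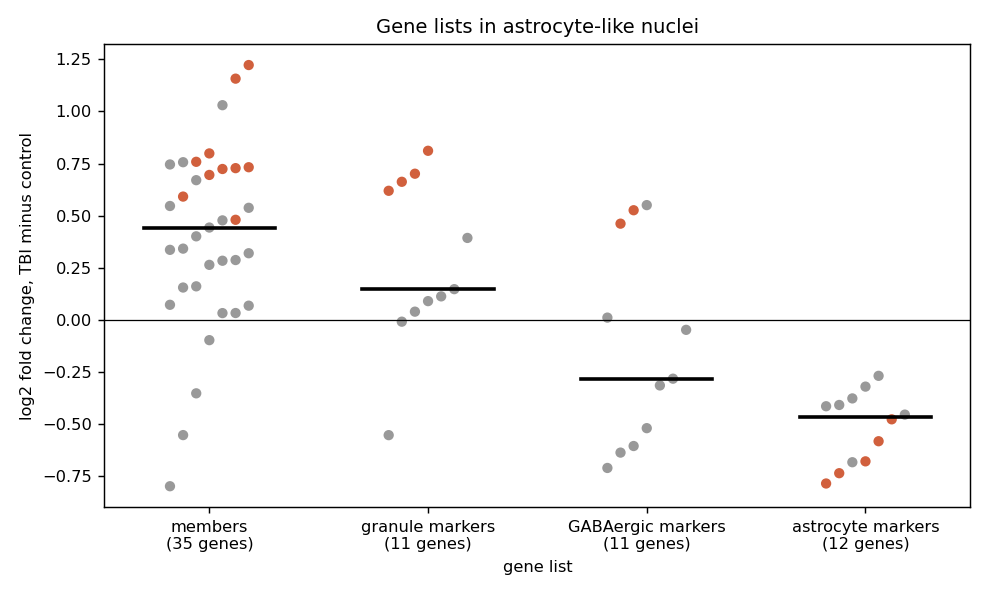
Log2FC of TBI minus control in astrocyte-like nuclei (vertical axis) for each tested gene (points) of the Kv members, the granule markers, the GABAergic markers and the astrocyte markers, with a line at the median of each list. The members have a median of 0.44 and the granule markers of 0.15, while all 12 astrocyte markers lie below 0.

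In mature oligodendrocyte-like nuclei 18 of 27 members had a positive Log2FC and 0 an unadjusted p under 0.05, and whether precursors differ from them was tested only in the model over all classes. Committed oligodendrocyte precursor-like nuclei, 54 to 106 per rat, had 9 members tested, all with a positive Log2FC and 4 at an unadjusted p under 0.05, where 3.7% of genes were. Beside Kcnab2 and Kcnd3 these were Kcnh1, with 208 and 214 CPM in TBI against 79.1 and 98.3 CPM (Log2FC 1.18 ± 0.41), and Kcnq5, with 255 and 334 against 167 and 80.5 CPM (Log2FC 1.20 ± 0.40). They rest on 78 to 124 UMIs per gene over the 4 rats. The granule neuron markers in these nuclei summed to 5778 and 5702 CPM in TBI and 4682 and 4774 CPM in the controls, and their part in the result was not tested.

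Oligodendrocyte precursor-like nuclei had 2 of 26 members higher, where 1.8% of genes were, and 1 lower, where 1.29% were. Kcna2 was at 29.7 and 26.0 CPM in TBI against 11.8 and 14.9 CPM (Log2FC 1.03 ± 0.44, unadjusted p = 0.0404), on 82 UMIs. Kcnh8 (ELK1) was at 106 and 141 CPM in TBI against 157 and 193 CPM (Log2FC -0.54 ± 0.22, unadjusted p = 0.0394), the one member of the 23 results that was lower. Without the cluster of this class with the highest median UMI count, a choice made after seeing the data, Kcna2 was at a Log2FC of 1.30 (unadjusted p = 0.0321), Kcnab2 at 0.14 (unadjusted p = 0.635) and Kcnh8 at -0.24 (unadjusted p = 0.415).

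In microglia-like nuclei 2 of 24 members, Kcnab2 and Kcnd3, were higher at an unadjusted p under 0.05, where 1.09% of genes were, and in endothelial-like nuclei the same 2 of 13, where 2.43% were. In microglia Kcnab2 was at 310 and 301 CPM in TBI against 210 and 189 CPM, and Kcnd3 at 420 and 433 against 303 and 249 CPM. Granule neuron markers there summed to 6545 and 6121 CPM in TBI and 6487 and 5711 CPM in the controls. Without the microglia cluster of highest median UMI count the Log2FC was 0.77 for Kcnab2 (unadjusted p = 0.0979) and 0.44 for Kcnd3 (unadjusted p = 0.487). In endothelial nuclei Kcnab2 was at 165 and 125 against 71.0 and 80.2 CPM, and Kcnd3 at 270.4 and 202 against 127 and 85.5 CPM, with granule markers at 4845 and 4320 against 4056 and 3470 CPM.

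Whether the TBI difference varied between classes was tested in 1 model with the rat as a block. Of 34 members tested, 4 had an unadjusted p under 0.05, where 2.5% of 13003 genes did, among them Kcnd3 (unadjusted p = 6.6e-05), Kcnab2 (0.0189) and Kcnq1 (0.0404). Kcnd3 had an adjusted p of 0.286 from edgeR, and no member passed an FDR of 0.05, which 1 gene did (0.00769%), the tubulin gene Tubb2b. The differences between classes described for Kcnab2 and Kcnd3 did not pass that test.

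Partners of Kv channels and the other potassium channel groups were read beside the members. In bulk 12 of the 15 auxiliary and anchoring partners in the table were lower, 0 at an unadjusted p under 0.05. Among channels that Kv genes do not include, Kcnn4, a calcium-activated channel known from microglia, was at 0.267, 0.440 and 0.159 CPM in sham and 1.94, 3.76 and 2.46 CPM in TBI (Log2FC 3.22 ± 0.51, unadjusted p = 0.00031, edgeR adjusted p = 0.197). Kcnk13, of the K2P (leak) channels, was at 2.70, 1.83 and 1.57 CPM in sham and 4.73, 7.02 and 5.56 CPM in TBI (Log2FC 1.47 ± 0.29, unadjusted p = 0.0012), and these 2 genes stood apart from the sham libraries as the microglia markers did. The inward rectifier Kcnj8, known from pericytes (Log2FC 0.60, unadjusted p = 0.0354), was higher, as the pericyte markers were, and the sodium-activated Kcnt2 (Log2FC -0.31, unadjusted p = 0.0377) lower.

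In astrocyte-like nuclei 4 of 16 partners tested were higher at an unadjusted p under 0.05. They were Dpp6 (Log2FC 0.57) and Kcnip3 (0.77), which belong to Kv4 complexes, and the scaffolds Dlg4 (0.41) and Ank3 (0.62). Kcnj10 (Kir4.1), the inward rectifier by which astrocytes clear potassium, was lower, at 33.7 and 49.6 CPM in TBI against 67.9 and 80.0 CPM in the sham and naïve rats (Log2FC -0.90 ± 0.23, unadjusted p = 0.0055, edgeR adjusted p = 0.223). At an unadjusted p under 0.05, 5.65% of all genes tested there were lower. All 12 astrocyte markers were lower in these nuclei too, with a median Log2FC of -0.47. The part of that shift in Kcnj10 was not tested. In bulk Kcnj10 was at 45.7, 76.9 and 53.2 CPM in sham and 47.6, 51.3 and 46.0 CPM in TBI, with overlapping groups (Log2FC -0.32, unadjusted p = 0.143). The inward rectifiers Kcnj6, Kcnj9 and Kcnj14 and the K2P channels Kcnk2 and Kcnk12 had Log2FC of 0.56 to 1.91 in astrocyte-like nuclei. Kcnt1 (0.82) and Kcnmb4 (0.69), of the sodium- and calcium-activated group, were also higher there at an unadjusted p under 0.05. In oligodendrocyte precursor-like nuclei the Kv4 partners Dpp10 (Log2FC -0.69, unadjusted p = 0.0065) and Kcnip1 (-0.62, unadjusted p = 0.0340) were lower and the channels Kcnj11 (1.96, unadjusted p = 0.0180) and Kcnk13 (1.08, unadjusted p = 0.0241) higher. In GABAergic nuclei Kcnt1 was higher (0.82, unadjusted p = 0.0179), by about as much as in astrocyte-like nuclei.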

How the data were processed

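Bulk RNA-seq reads were pseudoaligned by the authors with kallisto, and the deposited files hold estimated counts per transcript and log2 CPM of 14166 genes, filtered and log-transformed by the authors. Counts per gene were recovered by inverting the log2 CPM (prior count 0.5, library totals) and rounded. The kallisto version is not stated in the labels or methods. For the nuclei the authors deposited UMI counts per rat, made with Cell Ranger over exons and introns on Rnor 6.0. Entries stored as 0 were read as 0.

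Nuclei had at least 500 UMIs, 300 features and 0.8 log10 genes per UMI, and at most 5% mitochondrial and 2% ribosomal UMIs, which kept 55124 of 55863. Clusters (Seurat 5.3.0, 2000 variable features without the members and companion channels, 25 principal components, CCA integration, resolution 0.6) were named where at least 3 markers led, and 2 of 24 clusters stayed unnamed. Of these the larger, of 2720 nuclei, scored highest for granule neuron markers and the smaller, of 1963 nuclei, for astrocyte markers. No doublet caller was run, and 46 to 64 barcodes were shared by each pair of libraries. Class names were rebuilt here and may differ from the authors' annotation.

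Bulk counts and UMI sums per rat and class were tested with edgeR 4.0.16 (quasi-likelihood, TMM, two-sided) in R 4.3.3, with filterByExpr for nuclei and Benjamini-Hochberg adjustment over all genes tested. Alternatives used DESeq2 1.42.0 and limma 3.58.1. Scripts were tested on simulated data. P-values rest on the spread between 2 or 3 rats per group, with the spread of each gene drawn toward that of other genes. In nuclei the spread of the controls also holds the difference between the sham and the naïve rat. Same-numbered bulk libraries had correlated deviations of 0.352, 0.173 and -0.030, so the numbers were not taken to pair the rats.

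The members and lists were chosen with earlier results of these data known. Named members had an unadjusted p under 0.05 in bulk, or in a class where both TBI rats lay above or below both controls, or led in 1 class in all 4 rats with at least 100 UMIs, up to 6 per class. Some members enter the counts and are not reported by name here. Gene symbols of the bulk table came from RefSeq. Figures were drawn with matplotlib 3.10.9.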

Additional observations from a re-analysis of the deposited data

How the results depend on the processing

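In bulk, no Kv member passed an FDR of 0.05 under any alternative but the study's kind of adjustment over genes with p under 0.05 in DESeq2, which called 8 members (Kcna2, Kcnc1, Kcnc2, Kcne4, Kcne5, Kcnq3 and Kcnv1 among them) and all 1525 genes it was given. Over all genes edgeR called 0, DESeq2 349, and 0 to 1 without 1 library at a time. With the replicate number as a block edgeR called 61 genes and 0 members, but the numbers were not shown to pair the rats. With the surgery period as a covariate 2 members were lower and 1 higher at an unadjusted p under 0.05, against 4 and 2, and leaving out 1 library at a time gave 1 to 6 lower and 0 to 4 higher. Over all genes, in either direction, 906 had such a p with the covariate and 870 to 1871 without 1 library, against 1360. In nuclei, astrocyte-like members called at an FDR of 0.05 numbered 5 in DESeq2 and 7 with no filter on low counts, against 0. DESeq2 called 263 results over all genes and classes, and the number of all genes called with no filter is not given here. Leaving out a rat leaves 1 rat in a group, assumed to vary like the other group, so members called at that FDR are not counted for those fits. With a gate on markers in place of clusters 4 astrocyte members, 3 classes for Kcnab2 and 0 classes for Kcnd3 had an unadjusted p under 0.05, against 10, 7 and 4. The share of all genes under the gate is not given here. The astrocyte clusters of the finer resolution, tested alone after seeing the data, gave 3, 14 and 5 members. DESeq2 gave 3 classes for Kcnab2, and leaving out 1 rat gave 2 to 5 for Kcnab2 (2 without TBI 2) and 2 to 5 for Kcnd3 (2 without TBI 1 or the naïve rat). The class by injury test called 1 gene, and 0 to 73 without 1 rat. Of 96 bulk values of single named members under alternatives 6 passed an FDR of 0.05 and the other 90 kept their direction. Those within a surgery period were compared by direction alone, with no FDR. The rest of the 90 also kept their side of that FDR. Over the 96 bulk values and 257 values in nuclei 0 changed sign. The named members were picked for an unadjusted p under 0.05, and in nuclei also for both TBI rats on 1 side of both controls. Kept signs thus follow largely from that choice and are no separate test. The 14 members that led in 1 class included 12 in the same class with at least 1000 UMIs per nucleus (Kcnc4 not among them) and 13 with the marker gate (not Kcnh1). The cause of these changes was not tested. With 2 rats per group, differences of the size seen in the rarer classes were not separable from the spread.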

Other observations

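Some members differed between single rats in a way the injury did not follow. Kcne3, a small subunit known from epithelial Kv7 channels, had 408 of its 557 UMIs in the naïve rat, at 11.7 CPM over all nuclei against 1.02 CPM in sham, 1.05 CPM in TBI 1 and 3.03 CPM in TBI 2. Kcnq1, a Kv7 gene best known from heart and epithelia, was at 69.2 CPM in the naïve rat and 52.9 CPM in TBI 2, against 32.6 CPM in TBI 1 and 32.5 CPM in sham. Kcns2, a silent subunit, was at 6.26 CPM in the naïve rat and 5.18 CPM in TBI 2, against 2.49 CPM in TBI 1 and 2.81 CPM in sham. TBI 2 and the naïve rat stood together for Kcnq1 and Kcns2, as they did for the low level of Kcnc2 in granule neuron-like nuclei.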
